A study of Caenorhabditis elegans with 2 samples.

Results

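Binding of eGFP-tagged FOS-1 was examined around vhp-1 and the other 6 genes of the KGB-1 and JNK-1 stress kinase cascades of Caenorhabditis elegans, namely kgb-1, mek-1, mlk-1, shc-1, jnk-1 and jkk-1. These are 7 of the 19973 protein-coding genes of the nuclear genome. For each gene, every called summit in the gene body and 5000 bp to each side was taken from the 4 peak lists of build ce11. The genes were chosen from measured values, the signal and place of the called peaks: vhp-1 was picked for its intronic peaks in these lists. The others were taken as genes of the KGB-1 cascade, which VHP-1 restrains, and of the JNK-1 cascade. The peak counts of vhp-1 are therefore given as a description, with no test.

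The assay was ChIP-seq (chromatin immunoprecipitation followed by sequencing) of 2 biological replicates of strain OP304, taken as intact animals at L4, the stage before adulthood. The strain carries the unc-119(ed3) allele on chromosome III and the inserted transgene wgIs304, which carries the tagged fos-1. The animals were of mixed sex, and their exact age is given as unknown. Both samples form 1 group, with no other stage, strain or condition, and bound sites from different tissues of whole animals cannot be told apart.

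FOS-1 is the worm Fos protein, a basic leucine zipper factor, and Fos proteins pair with Jun partners to bind the AP-1 consensus element. In the KGB-1 cascade the kinase MLK-1 activates the kinase MEK-1, which activates KGB-1, a JNK-like MAP kinase known for heavy metal resistance and axon regeneration. VHP-1, a dual-specificity phosphatase, turns KGB-1 and the p38 kinase PMK-1 off, and FOS-1 itself is a known substrate of KGB-1.

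The sequences around the summits that the results turn on are printed here, each 201 bp long and centred on the pooled summit. They were read from the plus strand of the ce11 reference genome, which is also the coding strand of vhp-1, while kgb-1 and mlk-1 lie on the minus strand. Capitals mark TGANTCA, with N for any base, and runs of GAGAGA or of its reverse complement TCTCTC. The AP-1 consensus is TGACTCA or TGAGTCA, each the reverse complement of the other, so that a search for both letters covers both strands. TGANTCA with A or T in the centre and the GAGAGA runs were chosen after the sequences had been seen.
vhp-1, pooled rank 98, chrII:5330198-5330398: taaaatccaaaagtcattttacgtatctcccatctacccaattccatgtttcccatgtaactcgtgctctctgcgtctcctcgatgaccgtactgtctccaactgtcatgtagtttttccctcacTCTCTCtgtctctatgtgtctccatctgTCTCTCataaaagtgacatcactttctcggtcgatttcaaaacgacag
vhp-1, pooled rank 137, chrII:5332823-5333023: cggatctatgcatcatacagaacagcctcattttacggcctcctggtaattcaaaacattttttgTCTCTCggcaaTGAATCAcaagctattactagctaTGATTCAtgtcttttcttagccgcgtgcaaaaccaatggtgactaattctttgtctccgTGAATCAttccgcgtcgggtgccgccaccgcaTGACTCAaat
vhp-1, pooled rank 960, chrII:5334202-5334402: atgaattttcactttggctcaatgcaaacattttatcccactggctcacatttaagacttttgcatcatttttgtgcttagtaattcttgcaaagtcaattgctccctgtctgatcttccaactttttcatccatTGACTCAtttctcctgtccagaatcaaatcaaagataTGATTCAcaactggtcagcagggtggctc
vhp-1, pooled rank 23, chrII:5336976-5337176: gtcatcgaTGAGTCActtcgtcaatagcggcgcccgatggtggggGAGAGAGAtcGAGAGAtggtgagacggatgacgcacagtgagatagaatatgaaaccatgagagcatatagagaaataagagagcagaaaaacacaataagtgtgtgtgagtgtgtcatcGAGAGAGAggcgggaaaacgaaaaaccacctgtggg
kgb-1, pooled rank 773, chrIV:410478-410678: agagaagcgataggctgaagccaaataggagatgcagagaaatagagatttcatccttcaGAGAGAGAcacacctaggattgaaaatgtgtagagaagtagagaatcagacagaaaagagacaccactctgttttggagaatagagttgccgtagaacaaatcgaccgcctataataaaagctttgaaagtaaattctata
mlk-1, pooled rank 258, chrV:5065296-5065496: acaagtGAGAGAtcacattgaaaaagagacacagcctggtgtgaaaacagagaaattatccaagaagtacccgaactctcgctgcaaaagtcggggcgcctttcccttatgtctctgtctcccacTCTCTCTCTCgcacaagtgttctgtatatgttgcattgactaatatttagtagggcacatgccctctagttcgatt

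The sequences at ranks 98, 137 and 23 belong to the regions of vhp-1 in the authors' IDR set, the regions kept by a threshold on the irreproducible discovery rate (IDR). The sequence at rank 960 is that of the only other pooled vhp-1 summit with an AP-1 site. The last pair are the best-ranked pooled summits of kgb-1 and mlk-1. The window at rank 137 held 1 AP-1 site and 3 copies of TGANTCA with A or T in the centre. The window at rank 960 held 1 of each kind. The window at rank 23 held 1 AP-1 site and 3 runs of GAGAGA, and the window at rank 98 held no AP-1 site and 2 runs of TCTCTC. The kgb-1 window and the mlk-1 window held no TGANTCA of any kind, and 1 and 2 GAGAGA or TCTCTC runs.

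Over all windows of 201 bp in the same lists, an AP-1 site was found in 20 of the 248 IDR windows, or 8.06%, and in 106 of the 3527 pooled windows, or 3.01%. The share was 1.01% in the 496 windows centred 1000 bp to each side of the IDR summits and 1.83% over all 201 bp tiles of the nuclear genome. For TGANTCA with A or T in the centre the shares were 6.05% of the IDR set, 5.19% of the pooled list, 2.62% of the flanking windows and 4.02% of the tiles. For GAGAGA or TCTCTC they were 37.9%, 19.1%, 12.3% and 9.99%. The runs in the windows of kgb-1, mlk-1 and vhp-1 were thus of a kind that many IDR windows held. A match is a description of the letters, not a measured binding site.

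The 4 lists differ in depth of calling. The IDR set holds 248 regions, exactly the 248 of highest signal in the pooled list of 3527 regions. Replicate 1 was deposited with 30000 regions and replicate 2 with 29345, and the pooled and replicate lists include background by their names. The signal is a value given by the authors' peak caller on a scale that the files do not name, so it is compared only within a list. Its median was 38.1 in the IDR set and 19.3 in the pooled list, and its lowest value in the IDR set was 31.1. A rank counts regions from the highest signal in a list, starting at 1.

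Tagged FOS-1 was called inside vhp-1 at 3 regions of the IDR set, and in none of the windows of the other 6 genes. The best-placed other gene was mlk-1, whose top summit ranked 258 in the pooled list with a signal of 30.8, just outside the set. The vhp-1 region nearest to the edge from within ranked 137 with a signal of 37. Of all protein-coding genes, 692 or 3.46% had such a region in their window. Among the 278 genes at least as long as vhp-1 the share was 7.19%, or 20 genes.

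In the pooled list 5 of the 7 genes had a summit, against 33.8% of all protein-coding genes and 58.3% of those at least as long as vhp-1. The windows of vhp-1, kgb-1, mlk-1, shc-1 and jnk-1 held 11, 1, 3, 1 and 2 pooled summits in that order, and those of mek-1 and jkk-1 held 0. All 7 genes had a summit in each replicate list, where 95.5% of all protein-coding genes had one in replicate 1 and 94.6% in replicate 2. The members' share in the replicate lists was thus close to that of all genes. The windows of the 7 genes held 64 summits of replicate 1 and 44 of replicate 2 in all.

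**Figure D1:**
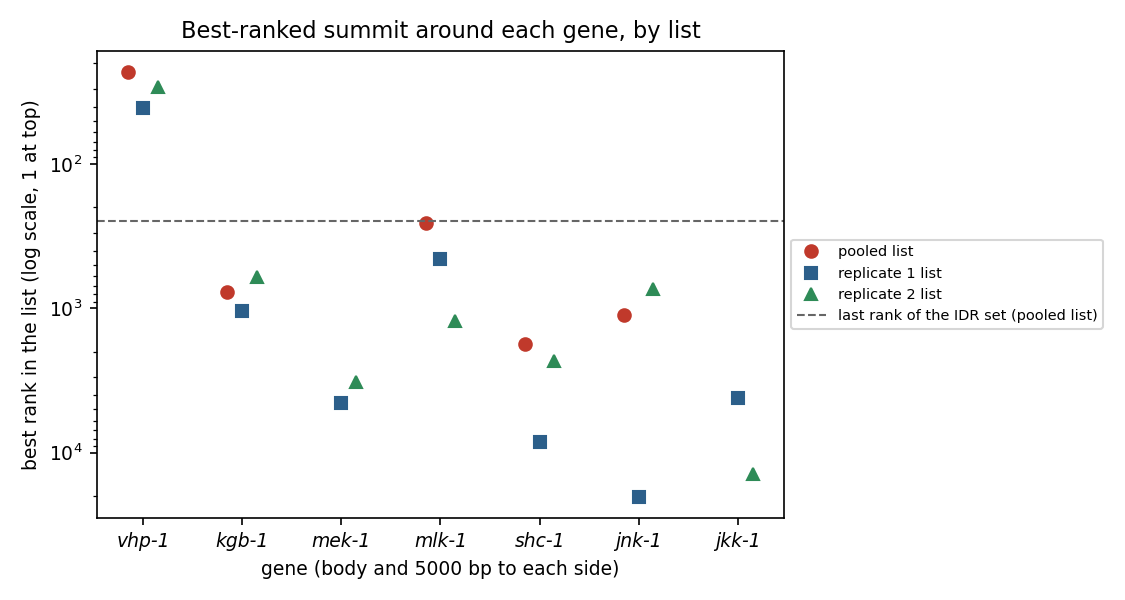
Best rank of any summit in the gene body and 5000 bp to each side of each of the 7 genes (vertical log axis, rank 1 at the top), with circles for the pooled list, squares for replicate 1 and triangles for replicate 2. The points of vhp-1 lie at ranks 23, 41 and 29, above the dashed line at rank 248 where the IDR set ends, and those of the other 6 genes lie below it.

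The gene vhp-1 (WBGene00006923) lies on the plus strand of chromosome II, at chrII:5323276-5340829, and is 17554 bp long. The annotation gives 7 coding transcripts with 6 distinct 5′ ends. That of isoform e lies at 5323276, that of isoforms a at 5331486, that of d at 5334558, that of b at 5336097, that of f at 5338228 and that of g at 5338773. The annotated ends of d, e, f and g are the first codon, so no 5′ UTR is known for them and the true starts may lie farther upstream. The coding isoforms share exons at the 3′ side and differ at the 5′ side, where the long introns are.

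The strongest region of vhp-1, at chrII:5336904-5337247, lay in an intron with its summit at 5337076. Its signal was 71.3 in the pooled list, 32.7 in replicate 1 and 45.4 in replicate 2, and its ranks were 23, 41 and 29. It was high in both replicates, near the top of each list. The summit lay 979 bp downstream of the 5′ end of isoform b and 1152 bp upstream of that of isoform f. An AP-1 site, TGAGTCA, began at 5336984, its centre 89 bp from the summit.

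The region at chrII:5330126-5330469 lay farther upstream, in the first intron of isoform e. Its summit at 5330298 had a signal of 41.8 in the pooled list, 16.5 in replicate 1 and 26.1 in replicate 2, at ranks 98, 381 and 91. The summit lay 1188 bp upstream of the 5′ end of isoforms a and 7022 bp downstream of that of isoform e. It also lay inside anr-54, an antisense RNA gene annotated within vhp-1. No AP-1 site was found within 100 bp of the summit or elsewhere in the region.

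The region at chrII:5332751-5333094 lay in an intron, 1437 bp downstream of the 5′ end of isoforms a and 1635 bp upstream of that of isoform d. Its summit at 5332923 had a signal of 37 in the pooled list, 18.2 in replicate 1 and 23.4 in replicate 2, at ranks 137, 241 and 120. The region held 2 AP-1 sites, with centres 94 and 150 bp from the summit, on opposite sides of it. The farther one fell outside the 100 bp to each side in which sites were counted. The deposited −log10 q-value was 2.45 for all 3 IDR regions of vhp-1, which is also the highest value and the median of the IDR set, so it does not rank them.

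**Figure D2:**
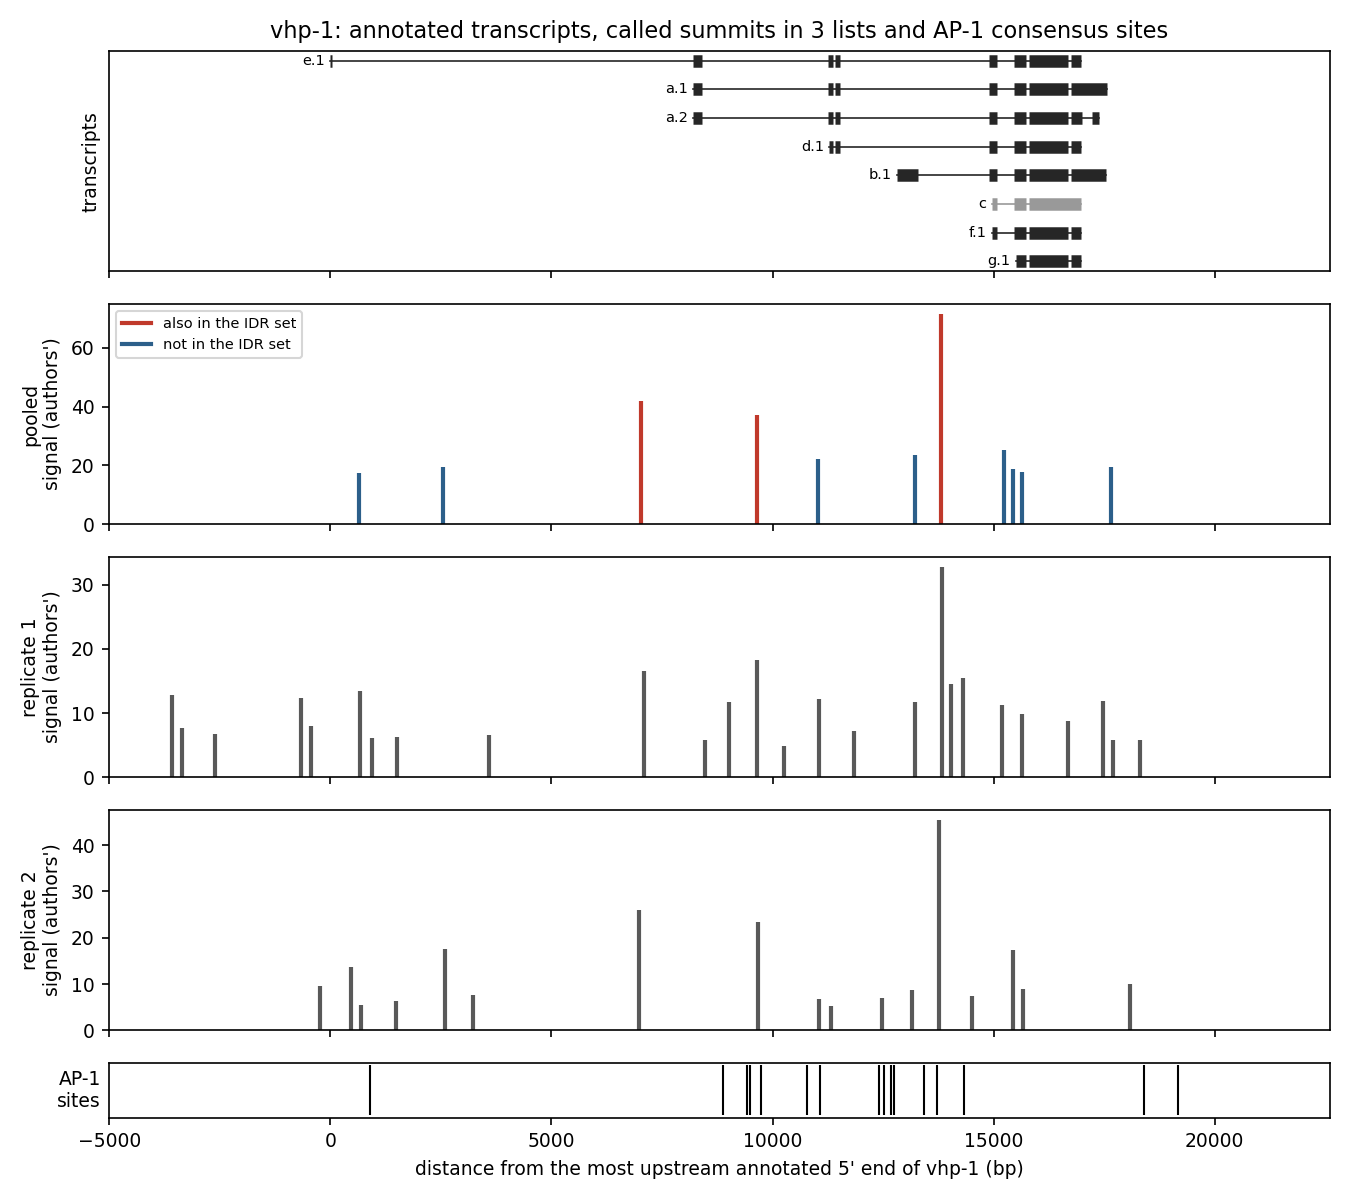
Annotated vhp-1 transcripts (boxes for exons, grey for a noncoding transcript), the signal of each called summit in the pooled list and in each replicate list (bars, on a separate vertical axis per list), and AP-1 consensus sites (lines) along the gene, in bp from its most upstream annotated 5′ end. The 3 red bars at signals of 41.8, 37 and 71.3 are the pooled summits that are also in the IDR set, and 13 of the 14 sites in the gene lie in 1 stretch of it.

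The other 8 pooled summits of vhp-1 had signals from 17.3 to 25.1, with a median of 19.6, close to the median of 19.3 for the whole pooled list. Their deposited −log10 q-values ran from 0.0402 to 0.676. The median of the pooled list was 0.131, and the lowest value in the IDR set was 1.45. Of all 11 pooled summits of vhp-1, 8 lay in introns, 2 in coding exons and 1 outside the gene. A weaker intronic summit at 5334302 had a signal of 22.2 at rank 960, and lay 256 bp upstream of the 5′ end of isoform d. An AP-1 site had its centre 38 bp from it, nearer than at any other pooled summit of the gene. It ranked 1498 in replicate 1 and 16184 in replicate 2, so the replicates placed it far apart.

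At the 3′ side of the gene, 3 overlapping pooled regions lay around the 5′ ends of isoforms f and g. The summit at 5338501 had a signal of 25.1 at rank 582 and was matched in replicate 1 alone, at rank 2231. The summit at 5338706, 67 bp upstream of the 5′ end of isoform g, had a signal of 18.9 at rank 1949 and was matched in replicate 2 alone, at rank 358. The summit at 5338920, in a coding exon, had a signal of 17.7 and was matched in both, at ranks 3835 and 6959. The replicates thus placed their higher summits in this stretch at different positions.

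In the long intron after the first exon of isoform e, the summit at 5325829 had a signal of 19.6 and was matched in replicate 2 alone, at rank 339. The summit at 5323936, 660 bp downstream of the 5′ end of isoform e, had a signal of 17.3 and ranked 932 in replicate 1 and 25902 in replicate 2. The summit at 5336496, in the coding first exon of isoform b, had a signal of 23.7 and ranked 1745 and 7559. The summit at 5340936, past the 3′ end of the gene, had a signal of 19.5 and was matched in replicate 1 alone, at rank 20563. None of these 4 had an AP-1 site within 100 bp.

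A replicate summit counted as a match within 200 bp of the pooled one. Of the 11 pooled summits of vhp-1, 7 were matched in both replicate lists, 9 in replicate 1 and 9 in replicate 2. Over all 7 genes, 12 of 18 pooled summits were matched in both, and over the whole pooled list 2605 of 3527 were. All 3 IDR regions of vhp-1 had a higher signal in replicate 2 than in replicate 1, but the scales of the lists are separate and the ranks are the values to compare. By rank, too, all 3 stood higher in replicate 2, that at 5337076 by the least, at 41 in replicate 1 and 29 in replicate 2.

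**Figure D3:**
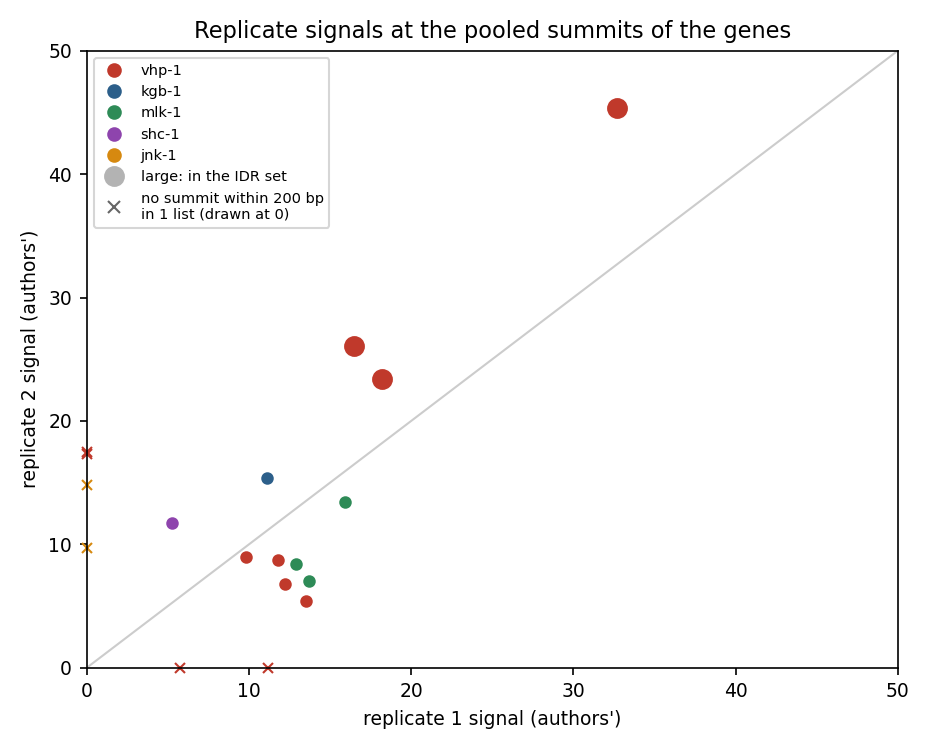
Signal in the replicate 1 list (horizontal) against the signal in the replicate 2 list (vertical) at each pooled summit of vhp-1, kgb-1, mlk-1, shc-1 and jnk-1, with large circles for the IDR set and crosses, drawn at 0, where a list had no summit within 200 bp. The 3 large circles of vhp-1 lie apart, at replicate 2 signals of 23.4, 26.1 and 45.4, and 12 of the 18 pooled summits have a match in both lists.

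Compared with other genes, vhp-1, which was picked for its peaks, held many summits for its length. Its 10 pooled summits inside the gene body were the highest count of any of the 19973 genes, and the next gene, rhgf-3, held 8 in 49355 bp. Of the 10 in vhp-1, only 3 were in the IDR set. The rest had deposited −log10 q-values from 0.0402 to 0.676, in a list that includes background. Per 10 kb of gene, vhp-1 held 5.7 pooled summits and all protein-coding genes together 0.293. With the flanks included, mnk-1 held 11 as vhp-1 did. In the replicate lists vhp-1 stood less far out, with 19 summits of replicate 1 in the gene body, exceeded by 6 genes, and 15 of replicate 2, exceeded by 13 genes. The median over genes at least as long was 7 in each replicate list. The genes rhgf-3 and mnk-1 were singled out after their values had been seen.

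**Figure D4:**
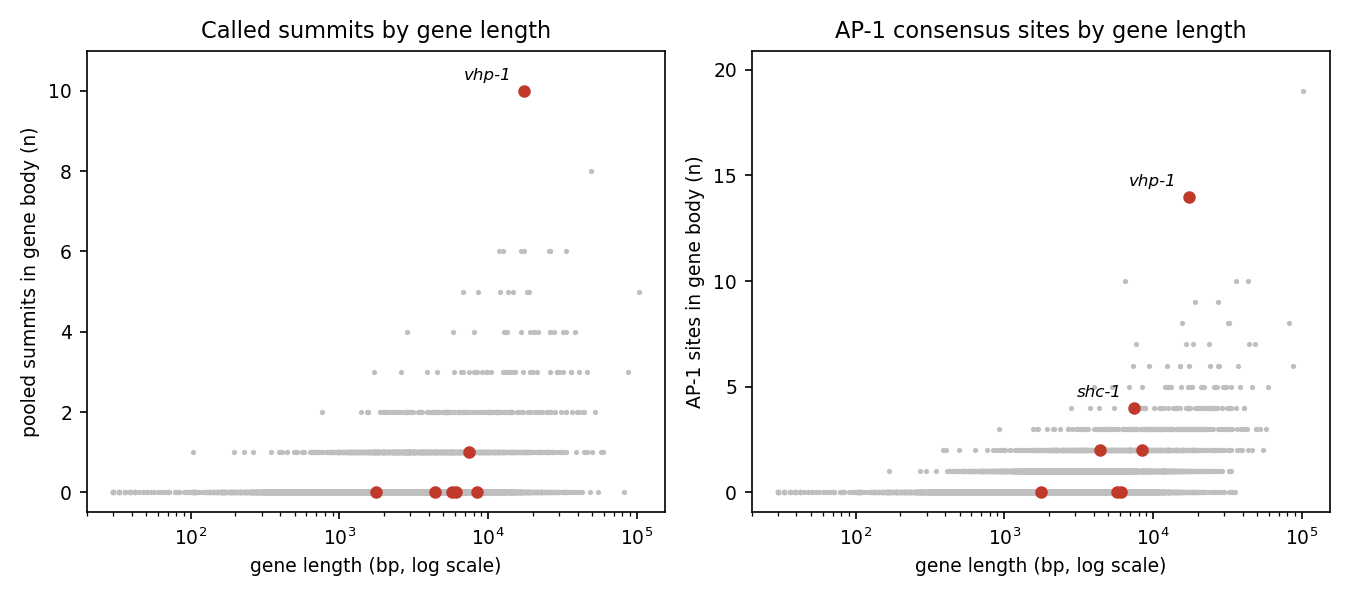
Number of pooled summits (left) and of AP-1 consensus sites (right) inside the gene body, against gene length in bp on a log axis, for all 19973 protein-coding genes (grey), with the 7 genes described here in red. vhp-1 lies at 10 summits and 14 sites, above the genes of like length, and shc-1 at 1 summit and 4 sites.

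The genes most like vhp-1 were taken as those with 2 or more IDR summits inside the gene body, ranked by their summed signal. There were 4 besides vhp-1. The gene pqn-41, which encodes a glutamine-rich protein, held 4 with a summed signal of 221, against 3 and 150 for vhp-1. The gene mom-1, which acts in Wnt secretion, held 2 with a summed signal of 129, and zfp-1, the AF10 relative, held 2 with 106. The gene F09A5.3 held 2 with 64.3. Of these summits 1, in F09A5.3, had an AP-1 site within 100 bp, against 2 of the 3 in vhp-1. The gene bodies also differ in AP-1 sites per 10 kb, with 7.98 in vhp-1. The values were 0.595 in pqn-41, 1.93 in mom-1, 1.35 in zfp-1 and 2.67 in F09A5.3. Whether this density accounts for the difference at the summits was not tested.

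The vhp-1 window held 16 AP-1 sites, 9 written TGACTCA and 7 written TGAGTCA on the plus strand. That is 0.581 per kb, against 0.0955 per kb over the nuclear genome, at a GC content of 35% against 35.4%. Of these sites 14 lay inside the gene, all in introns, the second highest count of any protein-coding gene. The highest, 19, was that of the nuclear receptor gene nhr-27, which is 102756 bp long and was singled out after its value had been seen. Per 10 kb of gene, vhp-1 held 7.98 sites, nhr-27 1.85 and all protein-coding genes 0.881.

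Most of these sites formed a cluster: 13 of the 14 lay within the 5437 bp of chrII:5332162-5337598, or 2.39 per kb. The bounds of the stretch are its own outermost sites, set after the sites had been seen, which by itself raises the density. This stretch runs from downstream of the 5′ end of isoforms a to upstream of that of isoform f, and it holds the regions at 5332923 and 5337076. Of the 14 sites in the gene, 4 lay in regions of the pooled list, 5 in regions of a replicate list only and 5 in no region of any list. The sites of the first and the last kind are printed with 10 bases to each side, on the plus strand of ce11 with the 7 letters of the site in capitals, to show the same letters with and without a called region. Regions have a fixed width in each list, so a site in no region can lie just past an edge. That starting at 5336687 lies just past a replicate 1 region that ends at 5336682. The first 4 lie in pooled regions and the last 5 in none.
vhp-1 site, chrII:5332760-5332786: aatggcccatTGACTCAttgaatttca
vhp-1 site, chrII:5333004-5333030: cgccaccgcaTGACTCAaatagtgtat
vhp-1 site, chrII:5334327-5334353: tttcatccatTGACTCAtttctcctgt
vhp-1 site, chrII:5336974-5337000: ttgtcatcgaTGAGTCActtcgtcaat
vhp-1 site, chrII:5332683-5332709: acgttgcaaaTGAGTCAtttaaaggtg
vhp-1 site, chrII:5334038-5334064: gaagttaggcTGAGTCAtgagcaggga
vhp-1 site, chrII:5335933-5335959: tcagggtattTGAGTCAgagagatgat
vhp-1 site, chrII:5336014-5336040: aaagctcttcTGACTCAtactctctct
vhp-1 site, chrII:5336677-5336703: tattctattgTGACTCAtttttgtttt

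The 3 pooled summits of vhp-1 with an AP-1 site within 100 bp had signals of 22.2, 37 and 71.3, and the 8 without one had signals from 17.3 to 41.8 with a median of 19.6. The groups overlap, since the region at 5330298 has no site and the second highest signal. With a window of 50 bp, 1 of the pooled summits and 0 of the IDR summits of vhp-1 had a site. Among the 248 highest regions of replicate 1 alone, 2 lay in vhp-1 and 1 of these had a site within 100 bp of its summit. The other held a site farther from its summit. The palindrome TGACGTCA, the cyclic AMP response element of related factors, occurred at 3 places in the vhp-1 window and within 100 bp of none of its IDR summits. It was found in 1.21% of the IDR windows, 0.822% of the pooled windows and 1.12% of the genome tiles.

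KGB-1 (gene WBGene00002187, chrIV:405621-410035, minus strand) is the JNK-like kinase that VHP-1 turns off. Its best pooled summit lay at chromosome IV 410578, with a signal of 23.3 at rank 773, and was called in both replicates with signals of 11.1 and 15.4 at ranks 2304 and 605. The summit lay 543 bp upstream of the most upstream 5′ end of kgb-1 and 289 bp upstream of that of T07A9.12, which is read in the other direction, so it cannot be assigned to either gene. In the replicate 1 list a summit in a kgb-1 intron at 409794 ranked 1124 with a signal of 13, and none of replicate 2 lay within 200 bp of it. The highest summit of replicate 1, at 405450, ranked 1047 with a signal of 13.2 and lay just past the 3′ end. The window held 3 AP-1 sites, none in a called region, and the nearest IDR summit lay 113422 bp from the gene.

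MEK-1 (WBGene00003185, chrX:7479248-7481005, plus strand) is the kinase that activates KGB-1. Its window held no pooled summit, 3 summits of replicate 1 and 5 of replicate 2. The nearest to its 5′ end was called in both lists, 418 and 385 bp upstream, with a signal of 5.77 at rank 20558 in replicate 1 and of 10.9 at rank 3253 in replicate 2. A pair at 1748 and 1778 bp upstream ranked 28479 and 11469, and the replicate 2 region there held 2 AP-1 sites. The best ranks in the mek-1 window were 4505 in replicate 1 and 3253 in replicate 2. The summit at rank 4505 lay 271 bp upstream of the 5′ end of coh-1 and 3959 bp upstream of that of mek-1. The nearest IDR summit lay 159569 bp from mek-1.

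MLK-1 (WBGene00003374, chrV:5056378-5064811, minus strand) is the kinase at the head of the cascade, and its best summit had the highest pooled signal among the 6 genes other than vhp-1. Its 3 pooled summits all lay upstream of the gene. The summit at chromosome V 5065396, 585 bp upstream of the most upstream 5′ end, had a signal of 30.8 at rank 258, and ranked 454 in replicate 1 with a signal of 15.9 and 1218 in replicate 2 with a signal of 13.4. The summit at 5066274, 1463 bp upstream, had a signal of 20 and ranked 1135 and 8709 in the replicates. The summit at 5067336 had a signal of 17.5, ranked 878 and 14602, and lay nearer to the 5′ end of Y58A7A.1, at 1279 bp, than to that of mlk-1, at 2525 bp.

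All 3 mlk-1 summits stood higher in replicate 1 than in replicate 2 by rank. None had an AP-1 site within 100 bp, although the window held 4 such sites, 1 of them in a region of the replicate 2 list. Inside the mlk-1 gene body there was no pooled summit, with 8 summits of replicate 1 and 3 of replicate 2. The nearest IDR summit lay 6247 bp past the 3′ end of the gene, with a signal of 33.1 at rank 201. That summit was 25 bp from the 5′ end of pqn-51.

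SHC-1 (WBGene00018788, minus strand of chromosome I, 969088 to 976560) is the adaptor that links MLK-1 and MEK-1. Its single pooled summit, at 975079, had a signal of 19.3 at rank 1762 and lay in the 5′ UTR, 1481 bp downstream of the most upstream 5′ end. It was called in both replicates, at rank 24898 with a signal of 5.24 in replicate 1 and at rank 2328 with a signal of 11.7 in replicate 2. The replicates thus placed it far apart. The gene held 4 AP-1 sites in 7473 bp, or 5.35 per 10 kb, none in a called region.

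JNK-1 (WBGene00002178, chrIV:6957641-6963719, plus strand) is the canonical JNK, and JKK-1 (WBGene00002177, chrX:5368468-5374174, plus strand) the kinase that activates it. The jnk-1 window held 2 pooled summits, both past the 3′ end and inside other genes. The summit at 6963915 lay in B0478.3, with a signal of 16.7 at rank 3395, and was matched in replicate 2 alone at rank 5214. The summit at 6967905 lay in ZK381.2, with a signal of 21.6 at rank 1107, and was matched in replicate 2 alone at rank 738. The best jnk-1 summit of replicate 1 ranked 20187.

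The window of jkk-1 held no pooled summit. Its best summits ranked 4185 in replicate 1 and 14111 in replicate 2. The one at rank 4185 lay in sek-5, 345 bp from the sek-5 5′ end and 9484 bp from that of jkk-1. Only 1 of the 7 replicate 1 summits was matched in replicate 2. It lay 8923 bp downstream of the jkk-1 5′ end and 216 bp upstream of that of sek-5. The jnk-1 window held no AP-1 site and the jkk-1 window held 2. The nearest IDR summits lay 153622 bp from jnk-1 and 55396 bp from jkk-1.

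The windows of the 6 genes other than vhp-1 covered 93866 bp. They held 7 pooled summits with signals from 16.7 to 30.8 and a median of 20, where the mean density of the pooled list gives 3.3 for that length. For the vhp-1 window the same density gives 0.969, against the 11 called, but vhp-1 was picked for its peaks in these lists. None of the 7 summits had an AP-1 site within 100 bp, although the windows held 17 sites, or 0.181 per kb. Of the 64 replicate 1 summits of all 7 genes, 23 had a replicate 2 summit within 200 bp, or 35.9%, and of the whole replicate 1 list 23.6% had.

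Other genes around the cascade were counted in 6 lists drawn up with earlier results of these data known, so their counts are not independent evidence. Of the 46 genes matched, each counted once, 5 had an IDR summit in their window, where 3.46% of all genes had one, and 23 had a pooled summit, where 33.8% of all genes had one. Of 9 genes listed around the KGB-1 cascade, among them the kgb-1 paralog kgb-2, 1 had an IDR summit and 3 a pooled one. The gene with the IDR summit was kgb-2. Of 7 nuclear and cytoplasmic partners of KGB-1, 2 had an IDR summit and 5 a pooled one. Of the p38 PMK-1 immunity cascade without vhp-1, 1 of 7 genes had an IDR summit and 6 a pooled one. The best pooled summits of tir-1, sek-1, pmk-1, pmk-2 and atf-7 lay nearest to the 5′ end of another gene, and that of skn-1 to its own. A summit can also count for more than 1 gene, as that at rank 922 did for csn-5 and skn-1. Of the heavy metal response genes, 1 of 9 had an IDR summit and 3 a pooled one. The DLK-1 and PMK-3 cascade, with 6 genes, and the ERK cascade, with 8, each had no gene with an IDR summit and 3 with a pooled one. The gene cebp-1, which had IDR summits, was listed with the partners of KGB-1 and not with the DLK-1 cascade. The counts of both lists depend on that placement.

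The gene cebp-1, which encodes a leucine zipper factor of axon regeneration, had IDR summits 755 and 186 bp upstream of its 5′ end, with signals of 132 and 32.5 at ranks 2 and 215. The first held 2 AP-1 sites and the second none. The window of kgb-2, the paralog of kgb-1, held an IDR summit with a signal of 37.2 at rank 136, but it lay 5436 bp from the kgb-2 5′ end and 534 bp from that of ltah-1.2. The summit at tir-1, which acts upstream of PMK-1, had a signal of 111 at rank 4 and lay 275 bp from the 5′ end of the ribosomal protein gene rpl-3, against 3848 bp from that of tir-1. The gene elt-2, an intestinal GATA factor, had an IDR summit 1392 bp upstream, with a signal of 31.2 at rank 244, and ranks of 10759 in replicate 1 and 242 in replicate 2. The window of the FOXO factor gene daf-16 held 2, at rank 183 outside the gene and at rank 218 in an intron.

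In the lists with no IDR summit, the best-ranked genes were dlk-1, the kinase at the head of its cascade, at rank 1503 with a signal of 20, and ksr-2, a scaffold of the ERK cascade, at rank 780 with a signal of 23.2. The ksr-2 summit lay nearer to the 5′ end of F58D5.5. The Jun gene jun-1, singled out after its value had been seen, had its best pooled summit 89 bp upstream at rank 410, with a signal of 27.3 and 1 AP-1 site. The gene fos-1 itself had no summit in its window in any of the 4 lists. Of all protein-coding genes, 95.5% had one in replicate 1 and 94.6% in replicate 2. The strain also carries fos-1 sequence in the transgene wgIs304, and whether this affects calling at the gene was not tested. The absence is therefore not read as a lack of binding there.

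**Figure D5:**
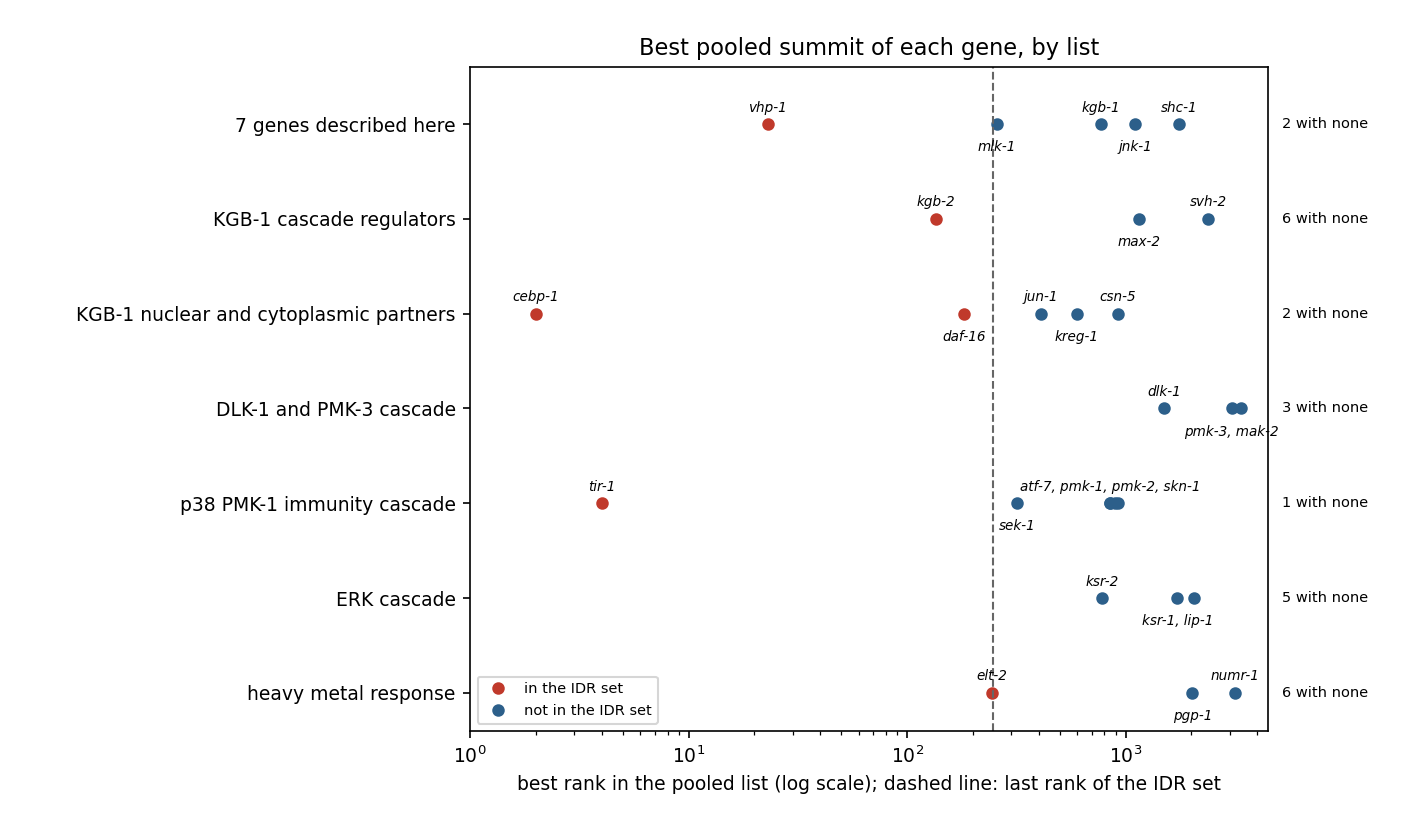
Best rank in the pooled list (horizontal log axis) of any summit in the gene body and 5000 bp to each side, for the 7 genes described here and the genes of 6 lists, with the number of genes without a pooled summit at the right. Red points lie in the IDR set, left of the dashed line at rank 248: vhp-1 at 23, kgb-2 at 136, cebp-1 at 2, daf-16 at 183, tir-1 at 4 and elt-2 at 244.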

How the data were processed

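ChIP-seq of eGFP-fos-1 in whole L4 larvae gave 4 peak lists on build ce11. The README deposited beside every sample says that a replicate's list was made from its own alignment and a control alignment, the pooled list from both replicates and the control, and the IDR set from the pooled and replicate lists. Not given in the sources used here are the aligner, the peak caller and the IDR threshold. The signal and the −log10 q-value of each region are the authors' deposited values. Start, end and summit offset were read as deposited and written 1-based. Read counts were not used, so the depth per sample is unknown, and the lists on ce10 were not analysed here.

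From these, summits were ranked by signal, placed on the reference genome of build ce11 with Ensembl annotation release 115, and assigned to a gene when in its body or within 5000 bp. AP-1 sites were sought within 100 bp of a summit, and replicate summits matched within 200 bp. The members and lists were chosen with earlier results of these data known. Genes were named by rule: the 7 members, genes of the pathway lists with an IDR summit (or the best-ranked gene of a list with none), and genes with 2 or more IDR summits in the body. A single symbol of the heavy metal list had no match, and another matched more than 1 locus. There was 1 group, so no test was made. Alternatives were other flanks, motif and matching windows, a stricter set and each replicate alone. Scripts were tested on simulated data and run with Python 3.11.15, numpy 2.4.6 and matplotlib 3.10.9.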

Additional observations from a re-analysis of the deposited data

How the results depend on the processing

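Of 38 values recomputed under other settings, 24 stayed close to the value reported and 14 moved. The values are counts and shares with no direction, so a reversal was not possible. Those counted as close include a change from 3 to 2 IDR summits of vhp-1. With flanks of 10000 bp, 2 of the 7 genes had an IDR summit, vhp-1 and mlk-1, instead of 1. The share of protein-coding genes with an IDR summit was 2.04% with flanks of 2000 bp, 5.48% with flanks of 10000 bp and 1.71% with the higher-signal part of the set, and 3.06% to 3.16% with either replicate alone. The share with a pooled summit was 21.7% with flanks of 2000 bp and 49.5% with flanks of 10000 bp. Of the vhp-1 IDR summits, 0 had an AP-1 site with a 50 bp window, 0 held TGACGTCA, and 1 had an AP-1 site in the higher-signal part of the set, where 2 of the 3 regions remained. With either replicate alone the count was 1 to 2, with 1 when replicate 2 was left out. In replicate 1 the summit of the strongest region was called at 5337100, not at 5337076. The AP-1 site was still in that region but more than 100 bp from the summit. The cause of the shift in summit was not tested. Of the pooled summits of the 7 genes, 1 had an AP-1 site with a 50 bp window and 0 held TGACGTCA. With either replicate alone, vhp-1 had 2 to 3 regions among the top 248. No paired analysis was possible because there is 1 group. The unknown depth limits what the absence of a summit shows, and no control sample list was analysed here.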
